A study of Homo sapiens with 10 samples.

Results

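The genes described here are 9 members of 4 actin-related families: the filamins FLNA and FLNC, the tropomyosins TPM1, TPM2, TPM3 and TPM4, the cytoplasmic actins ACTB and ACTG1, and the cofilin CFL1. They are 9 of the 39472 gene symbols in the count tables and were taken by symbol in 3 parts of the mRNA, the 5' leader, the coding sequence (CDS) and the 3'UTR, which makes 27 features. The genes were chosen with the leader counts of silvestrol and CR-1-31-B against DMSO already known, so for those contrasts fold changes and calls describe the genes, support nothing and carry no p-value.

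HEK 293T cells, an established human embryonic kidney line, carrying FLAG-tagged eIF4A were exposed for 1 h to vehicle (DMSO), to 20 nM silvestrol or to 20 nM CR-1-31-B, and were then crosslinked with ultraviolet light at 254 nm and 400 mJ/cm2. RNA bound to the tagged protein was recovered with an anti-FLAG antibody and read out by eCLIP, a crosslinking and immunoprecipitation sequencing assay. Each of the 3 treatments has 3 libraries with the numbers 1 to 3. A single input library without antibody carries the number 2. All 4 groups come from the tagged cells, and the labels say neither how the tag is expressed nor which treatment the input cells had, nor whether the numbers mark separate cultures. The p-values below therefore measure the spread between these libraries, which may be technical.

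eIF4A is the RNA helicase of the cap-binding complex eIF4F and opens structure in mRNA 5' leaders so that ribosomes can load. Rocaglates, the compound family to which the series title assigns silvestrol and CR-1-31-B, are known to clamp eIF4A onto purine-rich RNA. Filamins crosslink actin filaments, tropomyosins wind along the filaments and set which other proteins may bind them, the actins form the filaments, and cofilin severs and depolymerizes them. ACTB, ACTG1, CFL1, FLNA and the cytoplasmic tropomyosins are abundant in most cultured cells, whereas FLNC is best known from muscle.

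The anti-FLAG libraries held 858733 to 1804732 counts and the input library 2193699. All 8 markers listed for HEK 293T had at least 10 counts in the input library. Of the muscle list, 2 of 8 genes did, TTN with 640 counts and ACTA1 with 13, while the defining markers DES, MYH7 and MB had 0. The summed muscle list was 302.2 CPM in the input library, 262.9 to 357.3 with DMSO, 152.4 to 255.0 with silvestrol and 193.1 to 288.3 with CR-1-31-B. Most of this sum in the input library is TTN, and the part of such cells in the FLNC values was not tested. Of the fibroblast list 1 of 4 genes reached 10 counts in input, COL1A1, and none of 4 blood and none of 4 liver genes did.

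The leaders of the members differ in how their purines are arranged, and the stretch around the longest unbroken run of purines (A or G) is shown for 5 leaders of the filamin, tropomyosin and actin families. Each line gives 30 bases, 5' to 3', from the GENCODE 29 transcript model chosen for the gene by symbol (GRCh38), with the longest purine run in capitals. The authors' build and annotation are not given in the sources used here, so these models may not be the leaders that were counted.
FLNC: cggccctGGAGGGAGAGAGAGccagagagc
FLNA: gcgactttaattAAAGGGccgtcccctcgc
TPM4: ccgcagcccccacAGAGcccgccgcgcacc
ACTB: accgccGAGAccgcgtccgccccgcgagca
ACTG1: taaataacggcGGGGGAGGccgcggtcggt

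The FLNC model leader is 212 bases long, and its run of 14 purines lies at positions 8 to 21, close to the 5' end. The same run is present in both FLNC leaders of the annotation, but lies at positions 57 to 70 in the other, FLNC-201, which is 261 bases long. In FLNA, whose leader is 249 bases long, the longest run is 6 purines. Among the tropomyosins the longest run is 4 in TPM1 and TPM4, 8 in TPM3 and 14 in TPM2. The TPM2 run is as long as that of FLNC and also lies close to the 5' end, at positions 3 to 16. Other annotated leaders can differ from the model. Over the 14 TPM1 leaders the longest purine run is 17, and TPM1-204, 137 bases long, has a run of 7 at positions 17 to 23. TPM3-202, 208 bases long, has a run of 8 at positions 200 to 207. These 2 are shown because they hold a GA repeat that no tropomyosin model leader has:
TPM1-204: cgccatcgcacAGAGAGGcctgggcggggc
TPM3-202: gaaaaagctgctgatgagagtGAGAGAGGt
The longest run was 4 in ACTB (84 bases), 8 in ACTG1 (164 bases) and 8 in CFL1 (234 bases). Over 18355 genes with 1 model leader each, the median longest run was 8, and a run of 14 stood at percentile 89.1.

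The motifs GAGAGA and AGAGAG, which overlap each other in any longer GA repeat, were searched on the transcribed strand of the leaders. The FLNC model leader held each of them 3 times, counting overlaps. None of the model leaders of the other 8 members held either motif, against 15.4% of all 18355 leaders with at least 1 of them. Among all annotated leaders of a gene, 2 of 2 held a motif for FLNC, 1 of 14 for TPM1 and 1 of 10 for TPM3, and none did for the other 6 members. A leader with a motif was thus annotated both for TPM3 and for TPM1, whose leader counts overlapped with DMSO. Whether these annotated leaders were present in the cells or counted was not tested, nor was any part of the motif in the leader counts. The TPM3 motif lies just before the annotated start codon of its transcript. Whether that stretch is coding sequence in other TPM3 transcripts was not tested either. GAGAGA alone was in 10.95% of all leaders and AGAGAG alone in 11.46%. In the RefSeq windows of 250 bases before to 50 bases after the gene start (GRCh38.p14), 8 of the 9 members were matched. Within the 50 bases after the start, FLNC was the 1 matched member with either motif on the transcribed strand, against 4.078% of 35116 windows. On either strand of the whole window FLNC and TPM1 had a match, as did 32.4% of windows. These matches describe letters in a window and locate no binding site.

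Values of single libraries are CPM, counts scaled by the library's total count. Fold changes come from edgeR's quasi-likelihood fit with TMM scaling, and a feature is called where its Benjamini-Hochberg adjusted p is under 0.05. Of the 27 features, 26 passed the filter on low counts, and the FLNA leader did not.

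FLNC was the filamin with the higher leader counts under both rocaglates. Its leader stood at 11.2, 13.0 and 9.54 CPM in DMSO libraries 1 to 3, on 12, 14 and 9 counts. With silvestrol the FLNC leader stood at 114.7, 110.5 and 124.6 CPM. With CR-1-31-B it stood at 59.0, 93.0 and 47.0 CPM. All 6 rocaglate libraries lay above all 3 DMSO libraries, and the silvestrol libraries were the closer to each other. The input library gave 2.74 CPM, on 6 counts. The FLNC log2 fold change against DMSO was 3.38 ± 0.41 (SE, 3 libraries against 3) for silvestrol and 2.54 ± 0.41 for CR-1-31-B. Paired by library number, the ratio of FLNC leader CPM to DMSO shows values of 10.2, 8.49 and 13.1 for silvestrol and of 5.27, 7.14 and 4.92 for CR-1-31-B.

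FLNA, the ubiquitous filamin, had almost no leader counts. There were 3, 0 and 2 in the DMSO libraries, 8, 0 and 1 with silvestrol, 12, 7 and 6 with CR-1-31-B and 3 in the input library. The FLNA leader thus lay at 5.47 to 7.45 CPM in the CR-1-31-B libraries and at 0 to 2.80 CPM in the DMSO libraries, with no overlap. The count of 0 in DMSO library 2 allows up to 2.79 CPM (3 counts), a limit for counting error only. No fold change is given for it, since the DMSO libraries lie at or under 3 counts.

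Filamin coding sequences stood lower with the rocaglates. The FLNA CDS was at 278.2, 221.5 and 237.5 CPM with DMSO, 154.6, 180.3 and 198.0 with silvestrol and 191.9, 138.4 and 152.9 with CR-1-31-B. The FLNC CDS was at 82.2, 124.7 and 91.2 CPM with DMSO, 46.0, 89.6 and 62.9 with silvestrol and 69.5, 52.4 and 66.6 with CR-1-31-B. The DMSO libraries were above all rocaglate libraries for FLNA, and above the CR-1-31-B libraries for FLNC. The log2 fold changes were -0.44 ± 0.32 and -0.62 ± 0.32 for FLNA, and -0.57 ± 0.37 and -0.69 ± 0.37 for FLNC, for silvestrol and CR-1-31-B in that order. None of these was called.

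TPM3, which encodes cytoplasmic and slow-muscle tropomyosins, was the tropomyosin with the higher leader counts. Its leader stood at 16.8, 19.5 and 12.7 CPM with DMSO. With silvestrol it stood at 137.4, 55.8 and 101.3 CPM. With CR-1-31-B it stood at 101.2, 98.5 and 49.1 CPM, and the input library gave 4.56 CPM. Every rocaglate library exceeded every DMSO library, although silvestrol library 2 was well below the other silvestrol libraries. The TPM3 log2 fold change was 2.59 ± 0.43 for silvestrol and 2.32 ± 0.43 for CR-1-31-B. Paired by library number, its ratios to DMSO were 8.18, 2.85 and 7.96 for silvestrol and 6.02, 5.04 and 3.86 for CR-1-31-B.

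The other tropomyosin leaders overlapped between the rocaglate and the DMSO groups. TPM4, a tropomyosin of non-muscle cells, had leader values of 81.2, 134.0 and 64.7 CPM with DMSO, 88.7, 165.3 and 72.2 with silvestrol and 139.1, 160.3 and 122.3 with CR-1-31-B. Its log2 fold changes were 0.24 ± 0.39 and 0.56 ± 0.39. Paired by number, the TPM4 leader was above DMSO in 3 of 3 libraries of each compound, at ratios of 1.09 to 1.23 for silvestrol and 1.20 to 1.89 for CR-1-31-B. How many of all leaders did so was not counted, but 70.37% and 67.55% of tested leaders had a log2 fold change above 0. Among them TPM4 stood at percentile 41.6 for silvestrol and 60.4 for CR-1-31-B of all tested leaders.

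TPM1 and TPM2 encode tropomyosins of muscle and non-muscle cells. The TPM1 leader lay at 7.42 to 12.1 CPM with DMSO, 2.99 to 8.31 with silvestrol and 6.26 to 12.01 with CR-1-31-B, on 3 to 16 counts a library. The TPM2 leader was at 20.5, 2.79 and 25.4 CPM with DMSO, 12.2, 1.99 and 15.1 with silvestrol and 18.01, 0.782 and 24.0 with CR-1-31-B. Library 2 of each group was low for TPM2, on 3, 2 and 1 counts, while the other 6 libraries had 13 to 29. Log2 fold changes were -0.62 ± 0.84 and -0.07 ± 0.82 for TPM1 and -0.69 ± 0.87 and -0.21 ± 0.85 for TPM2.

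Ratios within a library set TPM3 beside the other tropomyosins. TPM3 leader counts were 1.62 to 1.80 times the TPM1 leader counts with DMSO, 14.5 to 18.7 times with silvestrol and 4.09 to 15.8 times with CR-1-31-B. Both rocaglate groups lay above the DMSO group. The ratio to TPM4 was 0.146 to 0.207, 0.337 to 1.55 and 0.402 to 0.728 in the same order, again without overlap. The ratio to TPM2 was 0.5 to 7 with DMSO, 6.69 to 28 with silvestrol and 2.05 to 126 with CR-1-31-B, and both rocaglate groups overlapped with DMSO. In the CDS the TPM3 to TPM1 ratio was 0.364 to 2.44, 1.69 to 3 and 0.786 to 3.48, with overlap between all groups.

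Outside the leader the tropomyosins varied widely. The TPM3 CDS stood at 41.1, 3.72 and 17.0 CPM with DMSO, 32.7, 17.9 and 37.3 with silvestrol and 27.3, 79.0 and 45.9 with CR-1-31-B, and the groups overlapped. The TPM1 CDS was at 10.2 to 18.02 CPM with DMSO, 5.97 to 19.8 with silvestrol and 22.7 to 34.8 with CR-1-31-B, where it lay above DMSO in all libraries (log2 fold change 0.97 ± 0.54). The TPM2 3'UTR was at 16.8, 21.4 and 13.8 CPM with DMSO, 8.31, 0 and 9.32 with silvestrol and 9.31, 1.56 and 2.18 with CR-1-31-B. It lay below DMSO in all 6 rocaglate libraries, with log2 fold changes of -1.53 ± 0.93 and -1.94 ± 0.94. The 0 of silvestrol library 2 allows up to 2.99 CPM. The TPM3 3'UTR, the most counted part of TPM3 with DMSO, was at 120.0 to 159.6 CPM with DMSO, 103.6 to 143.2 with silvestrol and 103.7 to 172.5 with CR-1-31-B.

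The paired cytoplasmic actins, ACTB and ACTG1, encode nearly the same protein from CDS of equal length, 1128 bases in the annotation, of which 91.2% are identical. Their leaders differ in sequence and in values. The ACTB leader stood at 275.4, 163.8 and 149.5 CPM with DMSO, 916.5, 283.8 and 491.4 with silvestrol and 450.8, 294.0 and 185.6 with CR-1-31-B, against 27.8 in the input library. Every silvestrol library exceeded the DMSO range of ACTB, the lowest by a narrow margin, while CR-1-31-B libraries overlapped it. Compared within a library number the ACTB leader was higher in 3 of 3 for each compound, at ratios of 3.33, 1.73 and 3.29 for silvestrol and 1.64, 1.80 and 1.24 for CR-1-31-B. The log2 fold change was 1.55 ± 0.41 for silvestrol, at percentile 91.1 of all tested leaders, and 0.66 ± 0.41 for CR-1-31-B, at percentile 64.6. The silvestrol value was not called, but was with the library number as a block (log2 fold change 1.48), without the filter on low counts (1.62) and with DESeq2 (1.57).

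The ACTG1 leader stood at 158.7, 76.3 and 107.1 CPM with DMSO, 165.1, 74.7 and 135.1 with silvestrol and 142.8, 65.7 and 66.6 with CR-1-31-B. The 3 groups overlapped, library 1 was the highest of each, and the log2 fold changes were 0.16 ± 0.39 and -0.31 ± 0.40. The ACTB leader counts were 1.40 to 2.15 times the ACTG1 leader counts with DMSO, 3.64 to 5.55 times with silvestrol and 2.79 to 4.48 times with CR-1-31-B. Both rocaglate groups lay above the DMSO group, and the input library was at 0.803. The same ratio in the CDS was 0.544 to 1.06, 0.873 to 1.27 and 0.917 to 1.14. The ACTG1 CDS was at 336.1, 395.5 and 292.6 CPM with DMSO, 258.2, 203.2 and 222.4 with silvestrol and 275.1, 271.3 and 210.7 with CR-1-31-B. All rocaglate libraries were below DMSO there, and again in the ACTG1 3'UTR.

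CFL1, the non-muscle cofilin, had leader values of 49.5, 19.5 and 19.1 CPM with DMSO, 39.3, 0.996 and 14.0 with silvestrol and 19.9, 10.2 and 24.0 with CR-1-31-B. Silvestrol library 2 held a single CFL1 leader count. The log2 fold changes were -0.62 ± 0.69 and -0.72 ± 0.69, and the groups overlapped in each of the 3 mRNA parts.

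**Figure D1:**
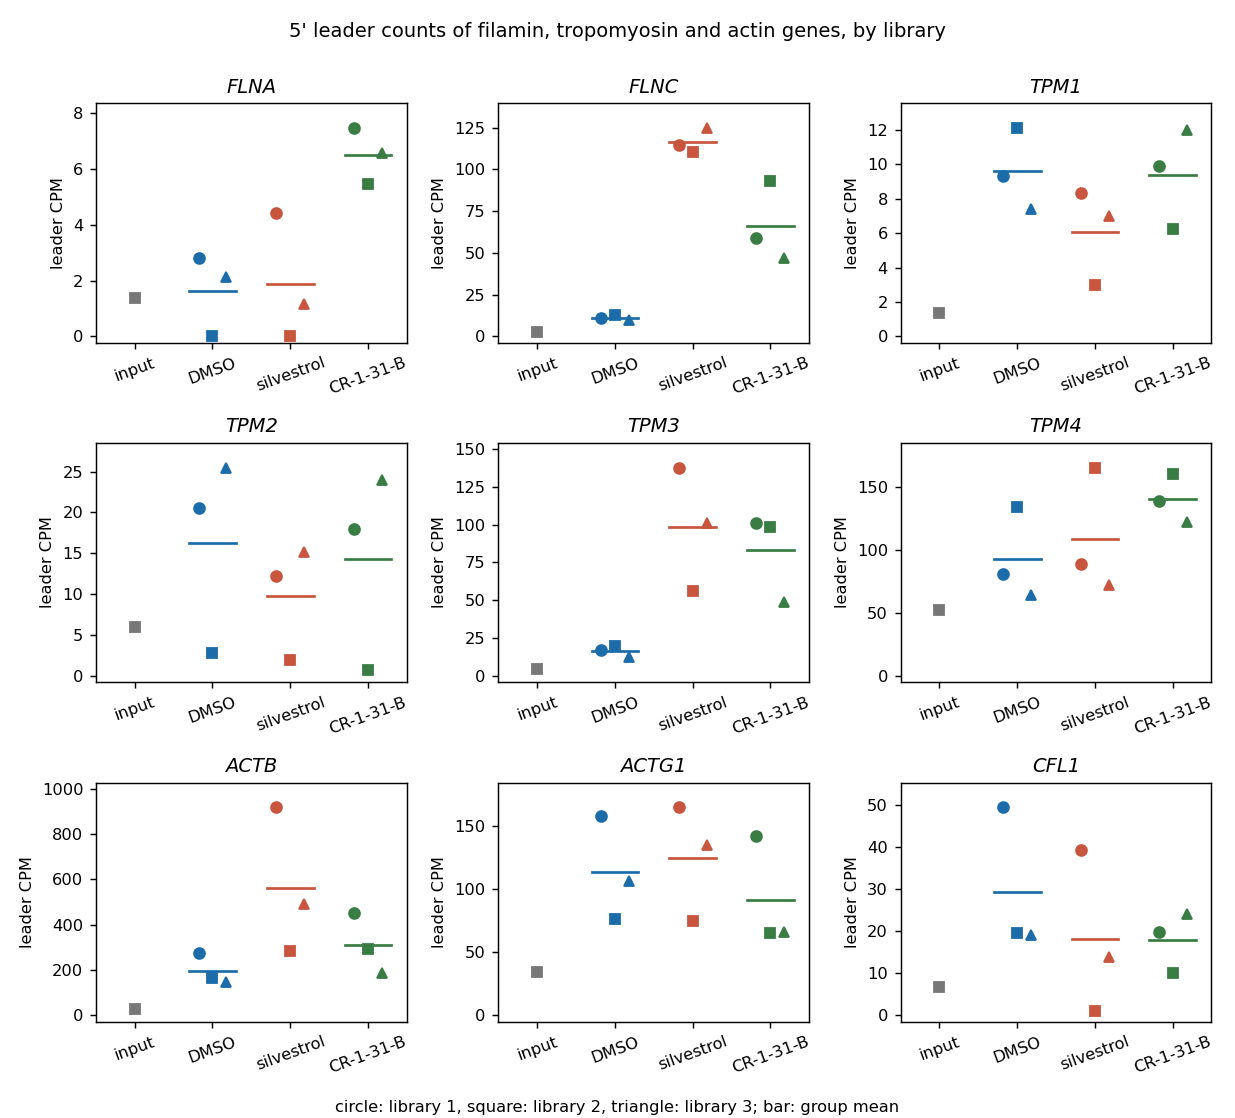
The 5' leader value of each of the 9 genes in every library, in CPM of the library total on a linear scale that differs between panels, with group means as bars and symbols for the library number. FLNC and TPM3 lie higher in all 6 rocaglate libraries than in DMSO, ACTB does so with silvestrol, and library 2 is low for TPM2 in each group.

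Counted over the members, 2 of the 8 tested leaders, FLNC and TPM3, were called higher with silvestrol, where 0.857% of all 7122 tested leaders were. The same 2 leaders were called higher with CR-1-31-B, where 0.8% of all tested leaders were. Both comparisons share the DMSO libraries and were known when the genes were chosen, so these counts describe the choice. No member leader was called lower. Over the 8 member leaders the median log2 fold change came to 0.20 for silvestrol, against 0.40 over all tested leaders, and to 0.25 for CR-1-31-B, against 0.35.

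Leaders whose libraries did not overlap with DMSO were FLNC, TPM3 and ACTB with silvestrol, all higher, a state found in 18.3% of all tested leaders. With CR-1-31-B they were FLNC, TPM3 and the untested FLNA, against 16.8%. Leaving out 1 library at a time gave FLNC log2 fold changes of 3.28 to 3.57 with silvestrol and 2.23 to 2.74 with CR-1-31-B, and TPM3 values of 2.27 to 2.87 and 2.16 to 2.60. The FLNC call with CR-1-31-B was lost without DMSO library 1, DMSO library 3 or CR-1-31-B library 2. The TPM3 call was lost without any 1 of the DMSO libraries for either compound, without silvestrol library 1 for silvestrol, and without CR-1-31-B library 1 or 2 for CR-1-31-B.

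In the CDS none of the 9 members was called with either compound by edgeR's quasi-likelihood test, DESeq2 or limma voom, and the same was found in the 3'UTR. Of the 63 features called in all with silvestrol 61 were higher leaders, as were 57 of the 72 called with CR-1-31-B. At an unadjusted p under 0.05 the count was 0 for both parts with silvestrol, and 1 CDS (TPM3) and 0 3'UTRs with CR-1-31-B. Over all tested features it was 465 of 8413 CDS and 213 of 6712 3'UTRs with silvestrol, and 650 and 259 with CR-1-31-B. The members' median CDS log2 fold change came to -0.38 for silvestrol and -0.33 for CR-1-31-B, against -0.12 and -0.03 over all tested CDS. In the 3'UTR it was -0.33 and -0.48, against -0.26 and -0.27. CDS libraries lay wholly below DMSO for FLNA and ACTG1 with silvestrol, where 8.96% of all CDS did, and for FLNA, FLNC and ACTG1 with CR-1-31-B, where 7.04% did. The TPM1 CDS lay wholly above DMSO with CR-1-31-B, as did 8.53% of all CDS. In the 3'UTR, TPM2 and ACTG1 lay wholly below DMSO with silvestrol (11.5% of all 3'UTRs), and TPM2, TPM4 and ACTG1 with CR-1-31-B (8.98%).

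**Figure D2:**
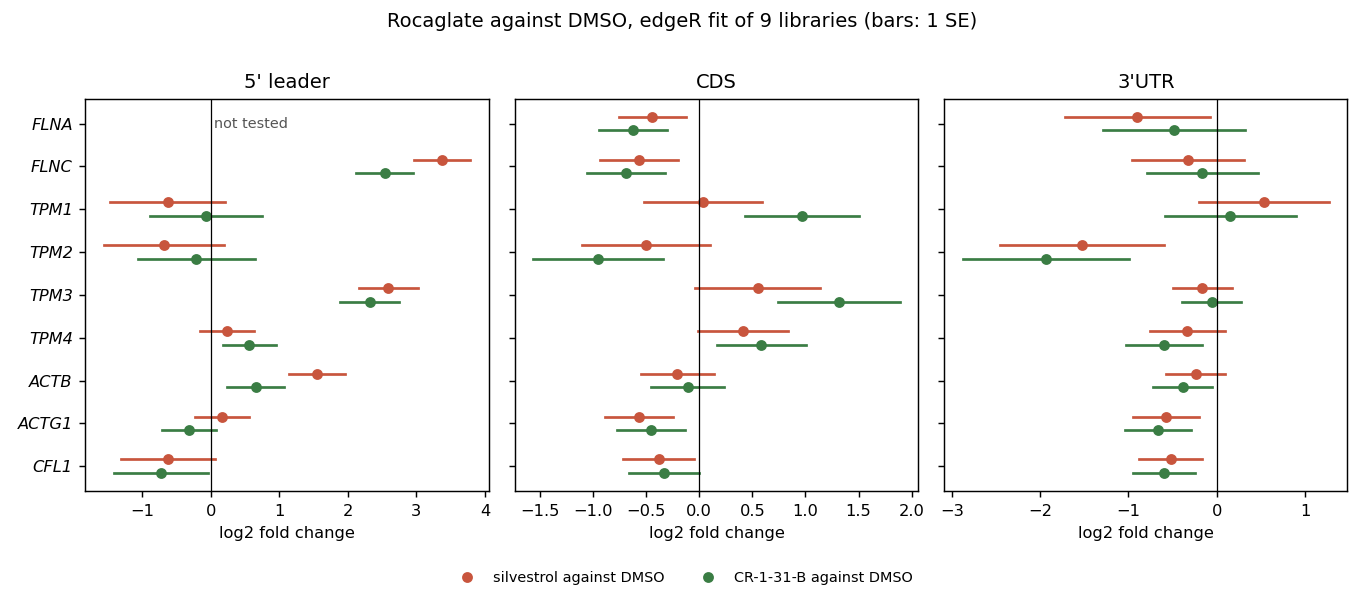
Log2 fold change of each gene against DMSO in the 5' leader, CDS and 3'UTR for silvestrol and CR-1-31-B, with bars of 1 SE from the edgeR fit of 9 libraries and a separate axis range in each panel. The leader values of FLNC (3.38 and 2.54) and TPM3 (2.59 and 2.32) stand apart from the other leaders, and no CDS or 3'UTR value was called.

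The share of a gene's counts that fell in the leader, out of leader, CDS and 3'UTR together, does not depend on how many counts the gene has in all. Over all genes this share was 27.9% ± 2.07 with DMSO (SD, n = 3), 37.9% ± 2.17 with silvestrol, 36.2% ± 6.40 with CR-1-31-B and 12.9% in the input library. For FLNC the share was 11.01%, 8.43% and 7.89% with DMSO, 65.1%, 53.6% and 61.9% with silvestrol and 42.4%, 57.2% and 37.1% with CR-1-31-B. The FLNC leader thus held a smaller share than the leaders of all genes with DMSO and a larger one with either rocaglate. In the input library it was 1.54% (exact 95% interval 0.568% to 3.33%, counting error only).

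For TPM3 the leader share was 9.59% ± 3.51 with DMSO (SD, n = 3), 38.1% ± 7.88 with silvestrol and 31.2% ± 12.6 with CR-1-31-B, against 3.37% in the input library (1.63% to 6.11%). Without the 3'UTR in the denominator the TPM3 share in DMSO library 2 was 84.0%, on 21 leader and 4 CDS counts, and the CR-1-31-B difference from DMSO was 10.0 percentage points in place of 21.6. For ACTB the share was 29.7% ± 5.73, 56.9% ± 8.34 and 42.3% ± 7.76, against 6.30% in the input library (4.85% to 8.01%). FLNC, TPM3 and ACTB were the members whose rocaglate libraries all exceeded the DMSO libraries for both compounds. How many of all genes had shares wholly above or below DMSO was not counted. The mean share over all genes was also higher, 37.9% for silvestrol and 36.2% for CR-1-31-B against 27.9% for DMSO.

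The ACTG1 leader share was 18.6% ± 6.09 with DMSO (SD, n = 3), 26.9% ± 4.28 with silvestrol and 20.0% ± 5.86 with CR-1-31-B, and the groups overlapped. TPM4 had the highest share with DMSO, 54.4% ± 14.7, and 57.5% ± 9.09 and 64.9% ± 2.24 with the rocaglates. It was also the highest in the input library, at 36.1% (30.8% to 41.6%). The FLNA share was 0.568% ± 0.499 for DMSO, 1.05% ± 1.39 for silvestrol and 3.58% ± 0.174 for CR-1-31-B, so that the CR-1-31-B libraries lay above all DMSO libraries by 3.01 percentage points on average. For TPM1 the share was 52.0% in DMSO library 2, on 25 counts, and 18.2% and 18.9% in the other DMSO libraries. All silvestrol libraries were lower for TPM1, at 15% to 15.8%. TPM2 shares were 7.32% to 33.8% with DMSO, 9.09% to 31.0% with silvestrol and 14.3% to 45.8% with CR-1-31-B, lowest in library 2 each time. CFL1 shares were 6.17% ± 2.57, 5.02% ± 4.46 and 5.57% ± 2.11, within the spread of the libraries.

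**Figure D3:**
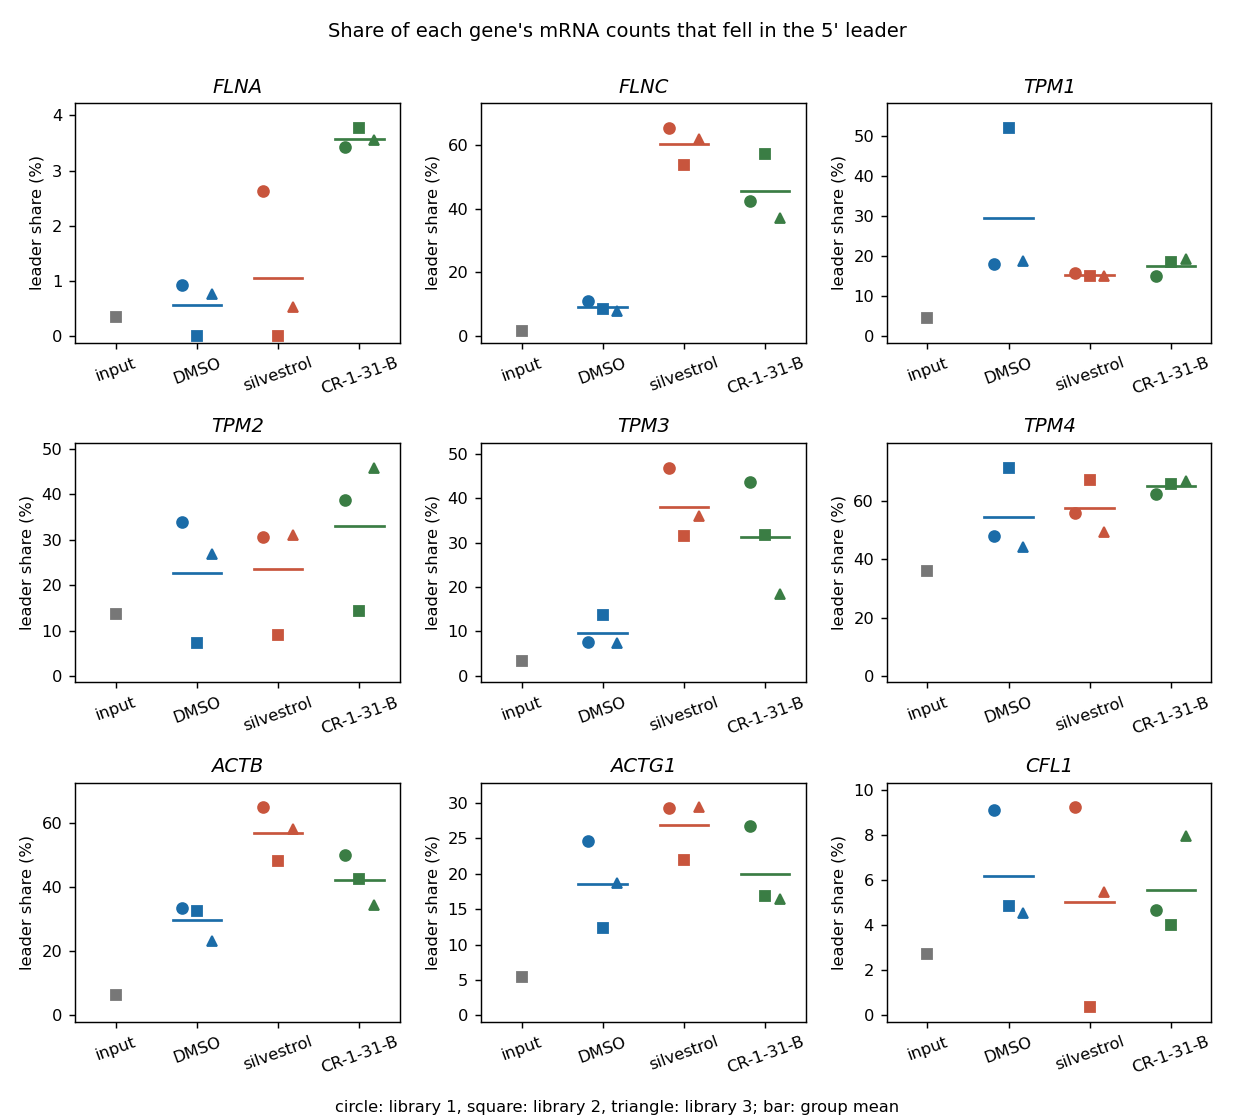
Percent of each gene's leader, CDS and 3'UTR counts that fell in the leader, per library, with group means as bars and a separate linear axis for each gene. FLNC moves from 7.89% to 11.01% with DMSO to 53.6% to 65.1% with silvestrol, whereas TPM4 is above 40% in every anti-FLAG library.

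Silvestrol and CR-1-31-B were given at the same dose, 20 nM, and for the same time, so their libraries can be compared directly. This contrast did not choose the genes, but it shares the silvestrol and CR-1-31-B libraries with those that did. For each of the 26 tested member features the difference was computed, with p-values adjusted over all 24713 features, and 0 were called, where 0% of all features were. DESeq2 and limma voom also called 0 features. At an unadjusted p under 0.05 there were 609 of the 24713 features, among them 240 of 7122 leaders. The 2 members among these were the leaders of FLNC and ACTB.

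The FLNC leader was lower with CR-1-31-B than with silvestrol in all libraries, as was the case in 4.51% of all tested leaders. Its log2 difference was -0.84 (95% interval -1.59 to -0.09), and edgeR's adjusted p was 0.9998. The ACTB leader differed by -0.89 (-1.73 to -0.05), with overlapping libraries. For TPM3 the difference was -0.27 (-1.08 to 0.55) and for ACTG1 -0.48 (-1.30 to 0.34). TPM4 was at 0.32 (-0.48 to 1.13). The leader intervals of TPM1 (-1.17 to 2.28), TPM2 (-1.32 to 2.28) and CFL1 (-1.54 to 1.34) allow differences beyond 1 log2 unit in either direction. The untested FLNA leader was higher with CR-1-31-B in all libraries, as were 3.66% of the tested leaders. In the CDS the highest values were those of TPM1, 0.93 (-0.17 to 2.04), with no overlap between libraries (7.07% of all CDS), and of TPM3, 0.76 (-0.40 to 1.92). In the 3'UTR no member had separate libraries, and the values ran from -0.41 (TPM2) to 0.42 (FLNA).

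**Figure D4:**
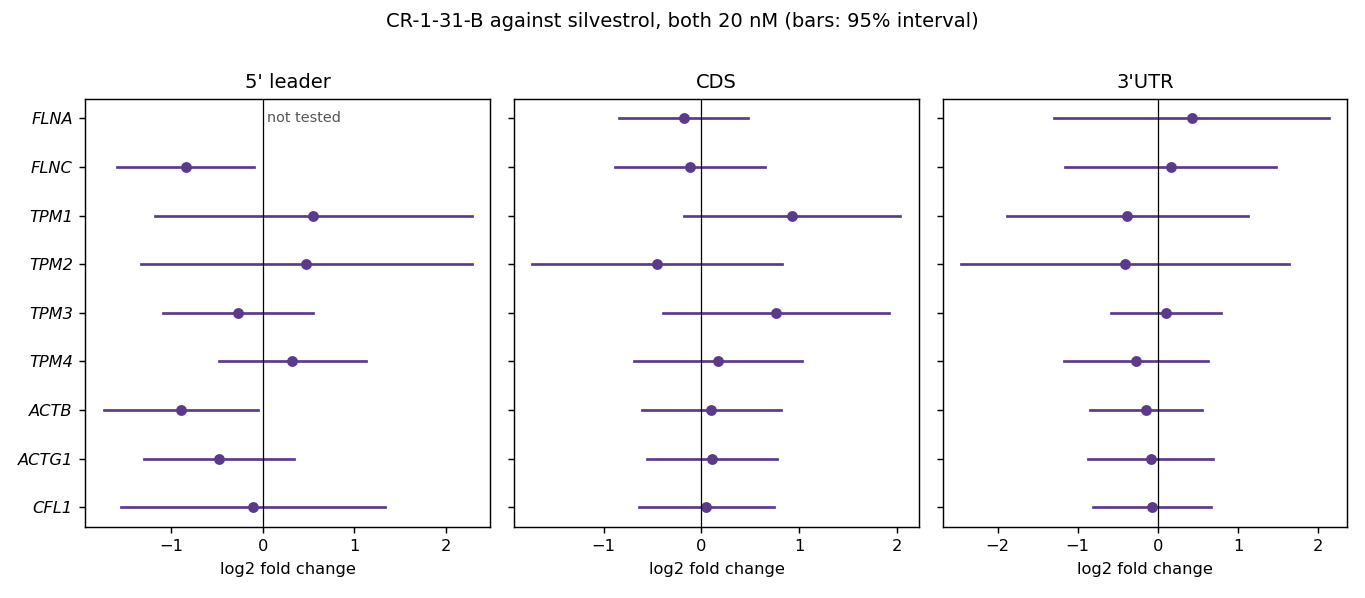
Log2 difference of CR-1-31-B from silvestrol for each gene in the 3 mRNA parts, with 95% intervals from the edgeR fit. The leader intervals of FLNC (-1.59 to -0.09) and ACTB (-1.73 to -0.05) lie below 0, and no feature passed adjustment.

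The comparison of DMSO with the input library asks which parts of the mRNAs were recovered with eIF4A before any rocaglate was given. It rests on 1 input library, which the fit of 10 libraries in 4 groups assumes to vary like the other groups. With a single input library the contrast has little power, so the lack of a call says little. Of the 8 tested leaders 1 was called higher, ACTB, where 7.63% of all 9550 tested leaders were. All 8 had a log2 fold change above 0, as did 87.9% of all leaders, and the member median of 1.60 was that of all leaders, 1.60.

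The ACTB leader stood at 27.8 CPM in the input library and at 149.5 to 275.4 CPM with DMSO, with a log2 fold change of 2.48 (95% interval 1.27 to 3.70, edgeR adjusted p = 0.0411). limma voom gave an adjusted p of 0.0659, and the call was lost without DMSO library 1 (adjusted p = 0.111), DMSO library 2 (0.0658) or CR-1-31-B library 2 (0.0633), over a range of 0.0212 to 0.111. The ACTG1 leader was at 34.6 CPM in the input library and 76.3 to 158.7 with DMSO (1.38, 0.22 to 2.55, edgeR adjusted p = 0.338). FLNC was at 1.69 (0.12 to 3.27, adjusted p = 0.341) and TPM3 at 1.51 (0.02 to 3.001, adjusted p = 0.429). TPM1, on 3 input counts, was at 2.43, CFL1 at 1.76, TPM2 at 1.099 and TPM4 at 0.52.

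No member CDS or 3'UTR was called against input by edgeR, with 1 CDS (FLNA) and 0 3'UTRs at an unadjusted p under 0.05. Over all tested features 583 of 10935 CDS and 137 of 9297 3'UTRs were under that unadjusted p. Of the 876 features called in all, 729 were higher leaders. The CDS of both filamins were lower with DMSO than in input, FLNA at 221.5 to 278.2 against 377.9 CPM and FLNC at 82.2 to 124.7 against 159.1 CPM. Their log2 fold changes were -0.95 (-1.92 to 0.03) and -0.99 (-2.04 to 0.05). The TPM2 3'UTR had the highest member value outside the leaders, 2.10 (-0.57 to 4.76), on 7 input counts. Scaling by library totals moved the median log2 fold change of all features from 0.139 to 0.467. Over the scalings tried, member signs held except for the TPM1 CDS, at -0.42 to 0.002, and the TPM3 3'UTR, at -0.05 to 0.37.

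**Figure D5:**
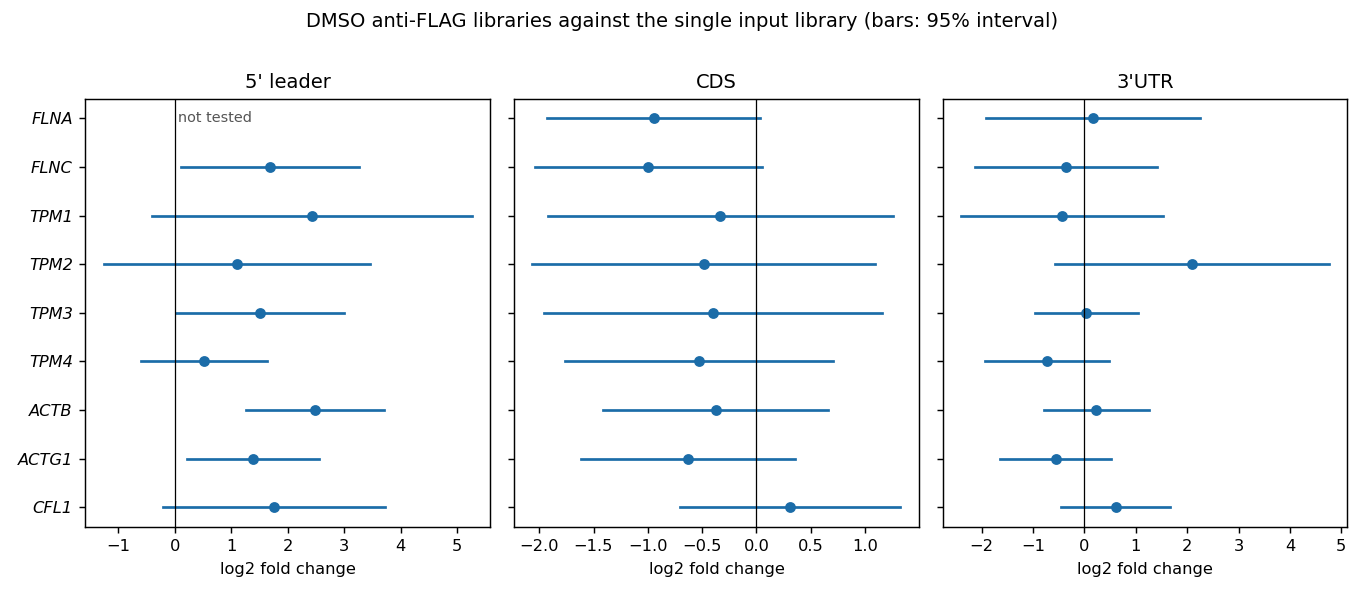
Log2 fold change of the 3 DMSO anti-FLAG libraries against the single input library, with 95% intervals from the edgeR fit of 10 libraries. All 8 tested leaders lie above 0, as most leaders do, and the ACTB leader (2.48) was the 1 member called.

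Levels between genes were compared only in the CDS, as CPM per kb of GENCODE 29 CDS. With DMSO the order was CFL1 at 348 ± 87.3 (SD, n = 3), ACTG1 at 303 ± 45.8, ACTB at 256 ± 62.9, TPM4 at 37.7 ± 15.1, TPM2 at 36.0 ± 25.2, FLNA at 30.9 ± 3.68, TPM3 at 24.0 ± 22.1, TPM1 at 17.6 ± 4.90 and FLNC at 12.3 ± 2.78. CFL1, ACTG1 and ACTB overlapped each other and lay above the tropomyosins and filamins, which overlapped with their neighbours. FLNC thus had the lowest mean CDS level per length of these genes with DMSO. In the input library the order began with ACTG1 at 376, ACTB at 264 and CFL1 at 224, and ended with FLNC at 19.7 and TPM1 at 17.6.

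Part of the CDS counts cannot be assigned with certainty. Of all 30-base stretches of the ACTB CDS 49.0% also occur in transcripts of other annotated genes, and the shares were 33.7% for ACTG1, 50% for TPM4, 31.9% for TPM3, 23.5% for CFL1 and 5.17% for FLNC. They were 0.455% for FLNA, 1.09% for TPM1 and 1.94% for TPM2. None of the 30-base stretches of the model leaders of the 9 members does. In the 3'UTR the share was 39.9% for TPM4 and at most 7.68%, in ACTG1, for the other members. How the authors placed reads that fit several genes is not given in the sources used here. The CDS values of the actins, TPM3, TPM4 and CFL1 and the TPM4 3'UTR values and leader share are thus uncertain. The leader values do not share this uncertainty as far as the model leaders are those that were counted.

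The input holds 1 library, and no input of rocaglate-treated cells was analysed here, so a change in eIF4A binding and a change in the amount of an mRNA cannot be told apart in the leader CPM between groups.

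Across the 9 anti-FLAG libraries the leaders most like that of FLNC, by Pearson correlation of log2 CPM over 7121 other tested leaders, were MAP7D1 (r = 0.98), PAIP2 (0.98) and PPP4C (0.97). Those most like TPM3 were PTPN1 (0.99), PPP4C (0.98) and PPP1R14B (0.98). FLNC and TPM3 correlated with each other at 0.94. The 9 points share the treatment groups, the depth and the library numbers, and these values are a description. The PPP4C leader, near both, ran from 119.8 to 141.4 CPM with DMSO, 501.9 to 688.7 with silvestrol and 301.4 to 591.1 with CR-1-31-B. The MAP7D1 leader ran from 39.2 to 49.8, 145.6 to 158.5 and 86.3 to 148.6 CPM, so that, as for FLNC, silvestrol had the narrower range of the rocaglates. The PTPN1 leader ran from 9.54 to 13.1, 29.9 to 65.9 and 27.3 to 60.2 CPM.

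Of 110 other actin cytoskeleton genes (other actins, myosins, nucleators, crosslinkers, small GTPases and their effectors) 82 leaders were tested in the fit of 9 libraries. None was called with silvestrol, where 0.857% of all leaders were called higher, and 1 was called higher with CR-1-31-B, a share near the 0.8% of all leaders. The list's median came to 0.43 (log2 fold change) for silvestrol, against 0.40 over all leaders, and 0.47 for CR-1-31-B, against 0.35. None of 85 CDS and none of 74 3'UTRs was called with either compound, where most features called in all were leaders.

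That leader, 1 of 82, was CFL2, the muscle-type paralog of CFL1. It stood at 3.73, 5.58 and 6.36 CPM with DMSO, on 4, 6 and 6 counts, at 33.2, 23.9 and 14.0 with silvestrol and at 34.2, 59.4 and 19.7 with CR-1-31-B. All rocaglate libraries lay above the DMSO libraries, unlike those of CFL1. The CFL2 log2 fold change with CR-1-31-B was 2.83 ± 0.60 (SE, edgeR adjusted p = 0.0412). The call was lost with limma voom (adjusted p = 0.342) and when any 1 of DMSO libraries 1, 2 and 3 or CR-1-31-B libraries 1 and 2 was left out, over a range of 0.0162 to 0.295.

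Against input, 15 of the 93 tested leaders of these other genes were called higher with DMSO and 0 lower, where 7.63% of all leaders were called higher, with a median log2 fold change of 2.03 against 1.60 over all leaders. The 5 highest were PDXP, a phosphatase that acts on cofilin, at 5.29 ± 1.73 (SE), the formin DIAPH1 at 4.10 ± 0.97, the non-muscle myosin heavy chain MYH10 at 3.79 ± 0.86, the spectrin SPTAN1 at 3.54 ± 0.97 and the GTPase RAC1 at 3.16 ± 0.57. Their edgeR adjusted p-values were 0.0199, 0.00975, 0.0146, 0.0329 and 0.00631, and limma voom called RAC1 alone of the 5. Without 1 library the call was lost for PDXP (without DMSO library 2) and SPTAN1 (without DMSO library 1 or 2). The input library held 1 leader count of PDXP, 3 of DIAPH1, 5 of MYH10, 4 of SPTAN1 and 27 of RAC1. All of these values but that of RAC1 therefore rest on 5 or fewer input counts. The RAC1 leader was at 12.3 CPM in the input library and 155.0, 147.0 and 114.5 CPM with DMSO. None of 96 CDS and none of 87 3'UTRs was called against input, where most features called in all were leaders.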

How the data were processed

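The deposited files hold read counts per gene symbol in 7 classes, 1 file per library, made by the authors. Per the submitters' processing notes, cutadapt and Bowtie 1.1 were used. Build, annotation, duplicate handling, strand use and counting rule are not given in the sources used here. Blank rows were left out. The genes, lists and alternatives were chosen with earlier results of these data known.

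All features (a gene in 1 class) were fitted with edgeR 4.0.16 (R 4.3.3): filterByExpr by group, TMM, quasi-likelihood tests and Benjamini-Hochberg adjustment over the 24713 features of the 9 anti-FLAG libraries, or 34522 with the input library. SEs are Wald SEs scaled by the quasi-likelihood dispersion. DESeq2 1.42.0 and limma 3.58.1 (voom), other scalings, no filter, fewer groups, each library left out and a block were alternatives. The edgeR step was tested on simulated data, where it recovered part of the larger changes between the anti-FLAG groups and none against the single input library. Libraries within a group differed by more than sampling noise. All 9 members are named, with at most 5 called genes per contrast and class from the list of 110 other actin genes, and the 3 leaders most correlated with each of FLNC and TPM3 (log2 CPM, prior count 2). 1 comparison gene and some sequences are not reported here.

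Pairing by library number was checked by correlating each library's deviations (log2 CPM) from its group mean. The 9 same-number pairs correlated at 0.102 to 0.263, all above the limit of 0.1, and the 18 other pairs at -0.203 to 0.0163. The numbers were therefore taken as pairs in the ratios to DMSO and in the fit with a block. This rests on the data, since the labels do not state it. The edgeR SEs, intervals and adjusted p-values printed here come from the fit without the block, which leaves the pairs out. The blocked value is given where it changes a member call. Other actin genes not called without the block were not examined with it.

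For each member 1 GENCODE 29 transcript was taken (APPRIS principal, then RefSeq match, CCDS and support level). Promoter windows are from RefSeq. At 943310 to 1074588 counts per DMSO library the FLNC and TPM3 leaders held 9 to 21 counts. Intervals for single libraries cover counting error only.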

Additional observations from a re-analysis of the deposited data

How the results depend on the processing

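Other scalings, a fit on the 3 mRNA parts alone, no filter, DESeq2, limma voom, fewer groups and the replicate block left the FLNC and TPM3 leaders called with both rocaglates. The number of member features called with silvestrol was 3 in place of 2 without the filter, with DESeq2 and with the replicate block, where ACTB joined, and the block changed no other member call. Against input limma voom called 0 members in place of 1. Leaving out 1 library at a time gave 1 to 3 called members with silvestrol, 0 to 2 with CR-1-31-B, 0 to 0 between the rocaglates and 0 to 1 against input. The silvestrol count was 1 without DMSO library 1, 2 or 3 or silvestrol library 1. The CR-1-31-B count was 0 when DMSO 1, DMSO 3 or CR-1-31-B 2 was missing, and 1 when DMSO 2 or CR-1-31-B 1 was. ACTB was called with silvestrol in 1 of 9 such fits. The TPM3 difference between the rocaglates ran from -0.54 to 0.0597 over these fits and was above 0 without silvestrol library 1. These fits use fewer samples. Over all features 63 were called with silvestrol, but 316 with the replicate block, 308 with DESeq2, 215 without the filter and 100 in the 3 mRNA parts. With CR-1-31-B the count was 72, but 365, 335, 225 and 144 in the same order. Between the rocaglates it was 0, but 1 with the block and 7 without the filter. Against input it was 876, but 1924 with the block, 1792 with DESeq2, 252 with limma voom, 1631 with library totals and 1450 with the 2 groups alone. Leaving out 1 library lowered the silvestrol count to as few as 4 and the CR-1-31-B count to as few as 0. The cause of these shifts was not tested. Under the scalings tried the direction of TPM1 CDS (-0.42 to 0.00) and TPM3 3'UTR against input was not fixed. Depth limits the FLNA, TPM1 and TPM2 leaders most, at 0 to 29 counts a library.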
